A study of Caenorhabditis elegans with 12 samples.

Results

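The subject is the interaction of prp-19 and atp-2 RNAi in Caenorhabditis elegans, that is, by how much the response to atp-2 RNAi differed between worms raised on prp-19 RNAi and worms raised on the empty vector L4440. It was formed on the log2 scale as the atp-2 effect in the prp-19-labelled libraries minus the atp-2 effect in the L4440 libraries. All 12 of the 12 libraries of the series entered it, as 4 groups of 3 libraries of polyA RNA from whole worms, sequenced on day 1 of adulthood. The groups were prp-19 RNAi with atp-2 RNAi, prp-19 RNAi alone, L4440 with atp-2 RNAi and L4440 alone. Every worm carried glp-4(bn2), a temperature-sensitive mutation that limits germline growth, so no group is wild type. RNAi was given by feeding, and L4440 is the plasmid backbone without a target sequence. The sources used here do not say whether the libraries of a group came from separate cultures, so p-values measure the spread between these libraries, which may be technical.

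PRP-19 is a conserved core member of a protein complex that bears its name and joins the spliceosome when introns are removed from pre-mRNA. ATP-2 is the beta subunit of the mitochondrial ATP synthase, the enzyme that turns the proton gradient of the respiratory chain into ATP. Loss of respiratory chain or ATP synthase function in worms is known to set off the mitochondrial unfolded protein response, in which nuclear genes for mitochondrial chaperones, proteases and import factors are induced, together with detoxification and innate immune genes. A gene can enter an interaction in several ways. Its response can be smaller, absent or turned round in one background, or the background alone can already hold it near the level that the response would reach.

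Library totals ran from 6731808 to 8802767 counts, and 12850 of the 25748 genes with a read passed the filter on low counts and were tested. Values are CPM, counts scaled by TMM factors to a common library size, which compare a gene between libraries but not genes of different length with each other. Replicate 3 of prp-19 alone stood apart from replicates 1 and 2 of its group. Its score on the third principal component was 9.54, against -27.5 and -24 in those replicates, and the 6 vitellogenin genes took 17.65% of its counts, against 6.85% and 10.39%. That share was 12.27% to 14.01% in the prp-19-labelled libraries with atp-2 RNAi, 11.65% to 12.47% in L4440 with atp-2 RNAi and 21.92% to 25.73% in L4440. Summed germline and oocyte markers stood at 1880 to 2530 CPM in prp-19 with atp-2 RNAi, 2020 to 2530 CPM in prp-19, 2260 to 2310 CPM in L4440 with atp-2 RNAi and 4180 to 6000 CPM in L4440, mostly from the eggshell genes perm-4 and perm-2. The list as a whole did not follow its sum in L4440. Of 26 markers tested, 8 rose and 2 fell after atp-2 RNAi in L4440, with a median log2 fold change of 0.483. The median log2 difference between prp-19 and L4440 was 0.77. The germline gene glp-1 stood at 12.5 to 15.6 CPM in prp-19 with atp-2 RNAi and 15.8 to 19.8 CPM in prp-19. In L4440 glp-1 stood at 11.4 to 12.9 CPM with and 11 to 12 CPM without atp-2 RNAi. The oocyte genes rme-2 and oma-1 were at most 1.94 CPM in every library, and 23 of 31 major sperm protein genes had 0 reads in all 12. The part of these differences in the results was not tested, and in whole worms fewer cells of a type cannot be told apart from less RNA per cell.

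The mRNA of prp-19 went against its label. prp-19 stood at 40.8, 29.1 and 18.12 CPM with and 84.1, 37.9 and 40.9 CPM without atp-2 RNAi in the prp-19-labelled libraries, against 27.9, 27.8 and 27.5 CPM with and 27.1, 24.3 and 28.04 CPM without it in L4440. The interaction, -0.96 (SE 0.53, adjusted p = 0.259), missed the threshold, and it was -0.479 without replicate 1 of prp-19 alone, the library at 84.1 CPM. The 3 libraries of prp-19 alone lay above every L4440 library, and with atp-2 RNAi only replicate 3, at 18.12 CPM, lay below all libraries of L4440 with atp-2 RNAi. The groups are therefore called by their labels, and a prp-19 effect below is the log2 difference between prp-19-labelled and L4440 libraries, whatever the level of prp-19 mRNA. Whether the counts of prp-19 and atp-2 hold reads of the fed double-stranded RNA was not tested. The mRNA of atp-2 fell after atp-2 RNAi in both backgrounds, but less in the prp-19-labelled libraries. atp-2 measured 512, 498 and 501 CPM in prp-19 with atp-2 RNAi and 894, 971 and 1176 CPM in prp-19, and it measured 266, 250.5 and 283 CPM in L4440 with atp-2 RNAi and 1635, 1609 and 1609 CPM in L4440. Its log2 fold change was -1.01 in the prp-19-labelled libraries and -2.60 in the L4440 libraries, an interaction of 1.59 (SE 0.12, adjusted p = 3.32e-08). Many responses below were smaller in the prp-19-labelled libraries. For these, a smaller response to the loss of ATP-2 and a smaller loss of atp-2 mRNA therefore cannot be told apart. The part of the smaller loss of atp-2 mRNA in responses that were larger or turned round was not tested.

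The edgeR quasi-likelihood test, at a Benjamini-Hochberg adjusted p under 0.05, called the interaction for 2476 of 12850 genes (19.3%). Of these, 1301 (10.1% of the genes tested) had a higher and 1175 (9.14%) a lower atp-2 effect in the prp-19-labelled libraries than in the L4440 libraries. The atp-2 effect itself was called for 1256 genes (9.77%) in the prp-19-labelled libraries and 4382 genes (34.1%) in the L4440 libraries. The prp-19 effect, which is formed from the same libraries as the interaction, was called for 7520 genes (58.5%) without atp-2 RNAi and for 6808 (53%) with it. When libraries were scaled by their totals alone, the median interaction over all genes was -0.378 in place of -0.033, and the split became 499 higher and 3504 lower, so directions here are relative to the bulk of genes. Without replicate 3 of prp-19 alone the count was 3583, with 2002 higher and 1581 lower, and it held 2399 (96.9%) of the 2476 genes.

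Each called gene was placed by its pair of atp-2 effects. A response is named lost when it was called in L4440 and not in the prp-19-labelled libraries, blunted when it was called in both with the same sign and smaller in prp-19, and reversed when it was called in both with opposite signs. Amplified responses were called in both and larger in prp-19, and gained responses were called in prp-19 and not in L4440. Lost responses made up 1795 genes (72.5% of those called), with 851 induced and 944 repressed by atp-2 RNAi in L4440. A further 228 (9.21%) were blunted, 107 (4.32%) reversed, 22 (0.889%) amplified and 169 (6.83%) gained, and 155 (6.26%) were called for neither atp-2 effect. A lost response need not be absent, since an effect that missed the threshold may still be there. Without replicate 3 of prp-19 alone, the atp-2 effect in the prp-19-labelled libraries was called for 2888 genes. Of the 3583 genes then called for the interaction, 1839 were lost, 327 blunted, 516 reversed, 64 amplified and 644 gained, so the share of lost responses was lower. Of the 1795 lost genes, 761 kept the sign of the L4440 effect in the prp-19-labelled libraries and 1034 had the other sign.

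**Figure D1:**
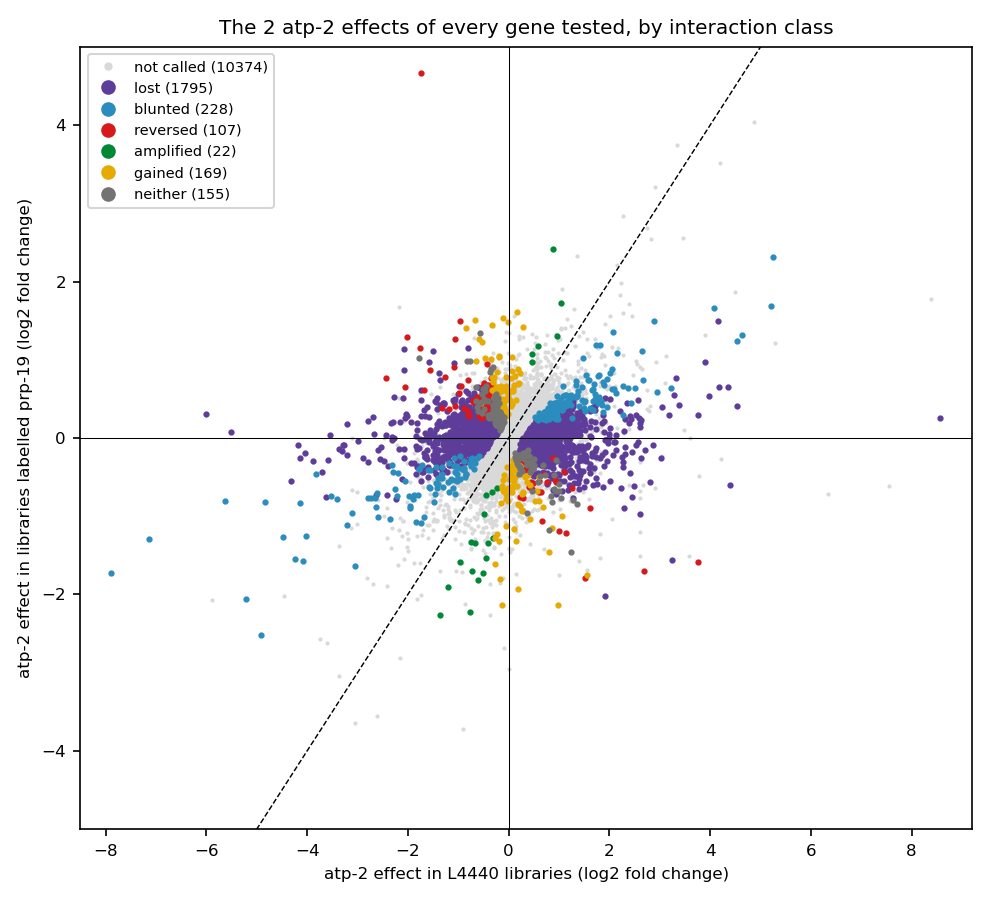
The atp-2 effect (log2 fold change) of each gene tested in the prp-19-labelled libraries (vertical) against that in the L4440 libraries (horizontal), with 1 point per gene, coloured by class with the number of genes in brackets, and with equal effects on the dashed line. The 1795 lost genes lie along the horizontal axis, and the 107 reversed genes lie in the upper left and the lower right.

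The blunted and lost genes were then divided by how prp-19 alone differed from L4440. A response is called masked here when the prp-19 effect in worms not given atp-2 RNAi was called in the direction of the atp-2 response of L4440, opposed when that effect went in the other direction, and a difference in response from a like starting level when that effect was not called. Of 2023 blunted or lost genes, 1253 (61.9%) were masked, 345 (17.1%) were opposed and 425 (21%) had a starting level that was not called different. Repressed genes were masked in 767 of 1036 cases (74%), and induced genes in 486 of 987 (49.2%). Of all 12850 genes tested, 58.5% were called different between prp-19 alone and L4440 alone, which counts both directions. A masked gene had to be called in the direction of its response. The background for masked, induced genes is therefore the 3859 genes called higher in prp-19 alone. That for masked, repressed genes is the 3661 called lower. The prp-19 effect shares the libraries of prp-19 alone with the atp-2 effect in prp-19 and those of L4440 alone with that in L4440. A high or low library of either group therefore moves it together with part of the interaction, and the shares are a description.

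The 697 lost, repressed and masked genes had a median log2 fold change of 0.0451 after atp-2 RNAi in the prp-19-labelled libraries and -0.679 in L4440, and their median prp-19 effect was -0.879. The 460 lost, induced and masked genes had medians of -0.0955 in the prp-19-labelled libraries and 0.863 in L4440, with a prp-19 effect of 1.02. Masking at the detection floor was uncommon among the repressed set, since 12 of the 697 genes averaged under 1 CPM in prp-19 alone. Of the 1253 masked genes, 606 were not called different between prp-19 with atp-2 RNAi and L4440 with atp-2 RNAi. Of the opposed genes, 231 were induced and the others repressed by atp-2 RNAi in L4440.

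**Figure D2:**
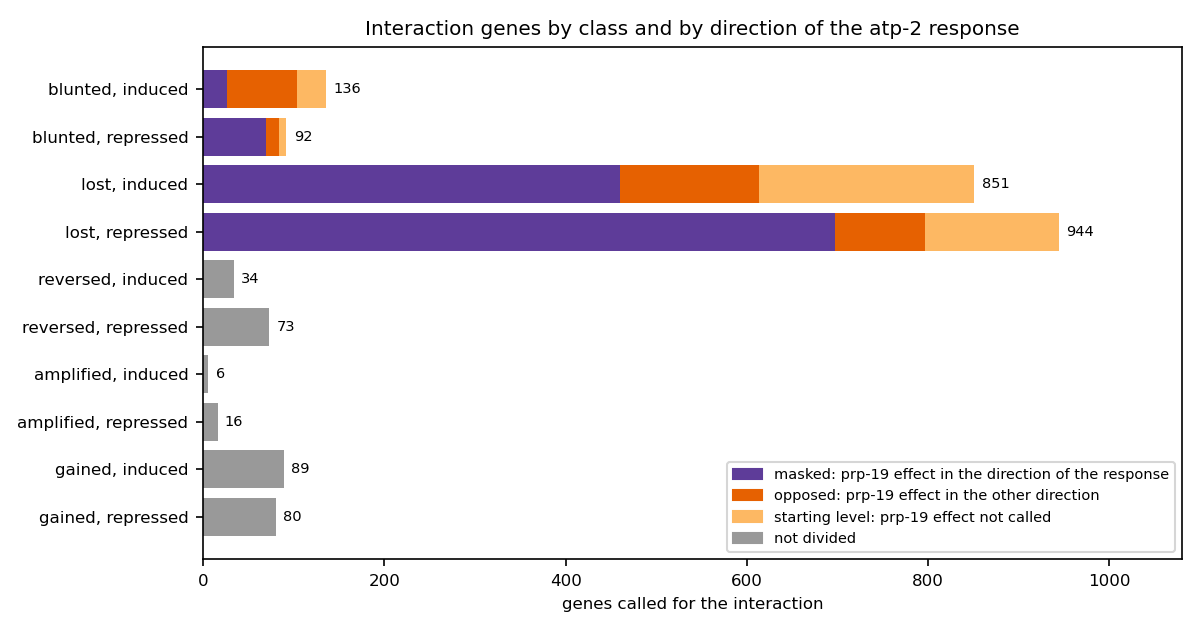
Number of genes called for the interaction (horizontal) in each class, split by the direction of the atp-2 response in L4440 (for gained responses, in prp-19), with blunted and lost genes divided by the prp-19 effect without atp-2 RNAi. The 944 lost, repressed genes form the longest bar, and 697 of them were masked.

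Among blunted inductions, the gene of smallest interaction p was cdr-4 (V:12407366-12408625, WBcel235), of a family named for its response to cadmium. cdr-4 stood at 154, 155 and 135 CPM with and 132, 115 and 113.99 CPM without atp-2 RNAi in the prp-19-labelled libraries, against 458, 455 and 485 CPM with and 91.0, 95.0 and 103.9 CPM without it in L4440. The prp-19-labelled libraries with atp-2 RNAi lay above those without but far under the L4440 libraries with atp-2 RNAi. Its interaction was -1.97 (SE 0.12, adjusted p = 1.83e-09). ril-2 had atp-2 effects of 0.42 in prp-19 and 1.85 in L4440, and B0205.13 of 2.31 and 5.25, so both were still induced in the prp-19-labelled libraries. Among blunted repressions, pud-4 (V:2326678-2327282), which is named for proteins that are up in daf-2 mutants, stood out by the prp-19 effect. pud-4 stood at 17.5, 21.5 and 15.9 CPM with and 30.8, 32.5 and 32.9 CPM without atp-2 RNAi in the prp-19-labelled libraries, against 10.1, 8.65 and 11.8 CPM with and 265, 308 and 293 CPM without it in L4440. The prp-19-labelled libraries without atp-2 RNAi were already far below the L4440 libraries, by -3.17 on the log2 scale, and the interaction was 4.01 (SE 0.16, adjusted p = 1.69e-11). dod-23, an immune effector that acts downstream of DAF-16, had an interaction of 3.36 with a prp-19 effect of -2.19. F49C12.7, which overlaps F49C12.6 and cannot be told apart from it where the counting strand is not known, had 3.32 and -1.29.

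Lost responses took more than 1 form. Y41C4A.32 (III:11721706-11723607) was masked from above. Y41C4A.32 measured 52.8, 52.8 and 50.8 CPM in prp-19 with atp-2 RNAi and 63.9, 62.6 and 46.3 CPM in prp-19, and it measured 48.13, 52.1 and 48.08 CPM in L4440 with atp-2 RNAi and 7.80, 8.68 and 6.17 CPM in L4440. The prp-19-labelled libraries with and without atp-2 RNAi overlapped each other and lay at the level that L4440 reached with atp-2 RNAi, and the interaction was -2.85 (SE 0.18, adjusted p = 3.04e-09). spd-5, which encodes a scaffold of the centrosome and overlaps hcp-6, came close to this form, with its 6 prp-19-labelled libraries a little under the induced level. spd-5 stood at 92.0, 76.9 and 81.4 CPM with and 76.2, 80.6 and 86.2 CPM without atp-2 RNAi in the prp-19-labelled libraries, against 108, 98.2 and 108 CPM with and 22.9, 21.3 and 27.3 CPM without it in L4440. The lectin-domain gene clec-17, although its prp-19 effect of 0.81 was called in the direction of the response, did not come near the induced level. clec-17 stood at 7.57, 9.37 and 8.30 CPM with and 7.50, 5.78 and 5.59 CPM without atp-2 RNAi in the prp-19-labelled libraries, against 89.8, 80.0 and 81.7 CPM with and 3.66, 2.83 and 4.23 CPM without it in L4440. The same label, masked, thus covers a gene that stood at the induced level in the prp-19-labelled libraries and one whose 6 prp-19-labelled libraries were at most 9.37 CPM.

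F54F7.2 and pud-2.1 were repressed genes of the lost class. F54F7.2 (X:11843663-11845337) stood between 2.05 and 3.07 CPM in the 6 prp-19-labelled libraries, against 3.95 to 5.92 CPM in L4440 with atp-2 RNAi and 202 to 229 CPM in L4440. pud-2.1 measured 10.4, 9.24 and 8.84 CPM in prp-19 with atp-2 RNAi and 13.6, 10.1 and 10.9 CPM in prp-19, and it measured 5.72, 5.81 and 7.49 CPM in L4440 with atp-2 RNAi and 67.6, 82.4 and 77.9 CPM in L4440. pud-2.1 lies next to pud-4 on chromosome V and belongs to a family of close copies, so reads may have been divided between copies. The collagen gene col-183, which overlaps F02D10.10, gave the opposed form. col-183 stood at 163, 142 and 138 CPM with and 166, 154 and 149.6 CPM without atp-2 RNAi in the prp-19-labelled libraries, against 2.74, 1.66 and 1.91 CPM with and 35.2, 48.19 and 32.3 CPM without it in L4440. Its 6 prp-19-labelled libraries lay above all 6 L4440 libraries, its prp-19 effect was 2.02, and its fall in L4440 was not seen in them (atp-2 effect -0.08, adjusted p = 0.699).

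Reversed responses were called for 107 genes, 34 of them induced and 73 repressed in L4440. The reversed, repressed genes had a median atp-2 effect of 0.466 in the prp-19-labelled libraries and -0.49 in L4440, and the reversed, induced ones of -0.563 and 0.539. Without replicate 3 of prp-19 alone the count was 516, and without replicate 1 of prp-19 with atp-2 RNAi it was 57. pgp-5 (X:10854216-10859297), an ABC transporter of the P-glycoprotein family, had separate groups in both backgrounds. pgp-5 stood at 92.7, 91.1 and 90.3 CPM with and 31.3, 34.7 and 31.2 CPM without atp-2 RNAi in the prp-19-labelled libraries, against 23.2, 22.6 and 23.2 CPM with and 45.2, 44.3 and 46.0 CPM without it in L4440. The interaction was 2.47 (SE 0.11, adjusted p = 1.75e-11). ugt-31, a putative UDP-glucuronosyltransferase, turned round in the same direction. ugt-31 measured 35.6, 39.4 and 33.1 CPM in prp-19 with atp-2 RNAi and 16.8, 14.6 and 12.7 CPM in prp-19, and it measured 6.52, 5.57 and 5.04 CPM in L4440 with atp-2 RNAi and 18.6, 26.2 and 24.9 CPM in L4440. comt-4, of the catechol O-methyltransferase family and overlapping Y40B10A.10, had an atp-2 effect of 0.65 in prp-19 and -2.06 in L4440, on top of a prp-19 effect of -3.05.

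The reversed gene with the most negative value among those named was the cytochrome P450 gene cyp-13A8 (II:9805600-9807569). cyp-13A8 stood at 0.473, 0.911 and 0.539 CPM with and 1.99, 1.93 and 1.82 CPM without atp-2 RNAi in the prp-19-labelled libraries, against 14.2, 11.97 and 11.3 CPM with and 0.796, 0.709 and 1.23 CPM without it in L4440. All 3 prp-19-labelled libraries with atp-2 RNAi were under 1 CPM, so the lower end rests on few reads, and the interaction was -5.34 (SE 0.42, adjusted p = 6.4e-08). endu-2, which encodes a secreted endoribonuclease and overlaps kqt-2, behaved alike at a higher level. endu-2 stood at 45.04, 46.1 and 45.6 CPM with and 57.9, 63.3 and 63.0 CPM without atp-2 RNAi in the prp-19-labelled libraries, against 55.5, 53.1 and 55.3 CPM with and 26.1, 21.4 and 29.1 CPM without it in L4440. Its interaction was -1.53 (SE 0.13, adjusted p = 1.21e-07). D1086.6 gave atp-2 effects of -0.69 in prp-19 and 0.61 in L4440.

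Amplified responses were the smallest class, with 22 genes, and 169 responses were gained. ttr-14, a transthyretin-related gene that overlaps vap-2, rose after atp-2 RNAi in both backgrounds. ttr-14 measured 331, 289 and 241 CPM in prp-19 with atp-2 RNAi and 93.9, 83.5 and 81.9 CPM in prp-19, and it measured 95.2, 76.1 and 83.8 CPM in L4440 with atp-2 RNAi and 39.2, 39.9 and 45.7 CPM in L4440. Its interaction, 0.70 (SE 0.16, adjusted p = 0.00526), missed the threshold with library totals (0.34, adjusted p = 0.188), and so did that of K09E9.1 (0.17 with library totals and 0.51 with TMM). The neighbouring genes ZK813.1 and ZK813.7, both between 3444814 and 3446875 on chromosome X, both fell strongly in the prp-19-labelled libraries. ZK813.1 stood at 87.4, 113.97 and 113.8 CPM with and 361, 386 and 357 CPM without atp-2 RNAi in the prp-19-labelled libraries, against 237, 291 and 246 CPM with and 359, 416 and 401 CPM without it in L4440. ZK813.7 stood at 130.0, 151 and 150 CPM with and 499, 506 and 500 CPM without atp-2 RNAi in the prp-19-labelled libraries, against 276, 309.6 and 277 CPM with and 309, 338 and 324 CPM without it in L4440. The fall was -1.81 in prp-19 and -0.60 in L4440 for ZK813.1, which was amplified, and -1.80 and -0.17 for ZK813.7, which was gained. F55B11.3 was also amplified, at -1.73 and -0.50. Among gained responses, the collagen gene col-135 had 4.96, 5.33 and 4.75 CPM with and 20.1, 26.8 and 19.2 CPM without atp-2 RNAi in the prp-19-labelled libraries, against 6.52, 5.92 and 6.402 CPM with and 7.003, 6.73 and 6.88 CPM without it in L4440. K11H12.3 rose by 1.51 in the prp-19-labelled libraries, and F26H9.5, which overlaps uev-3, rose by 0.66, while their L4440 effects of -0.68 and -0.05 were not called.

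**Figure D3:**
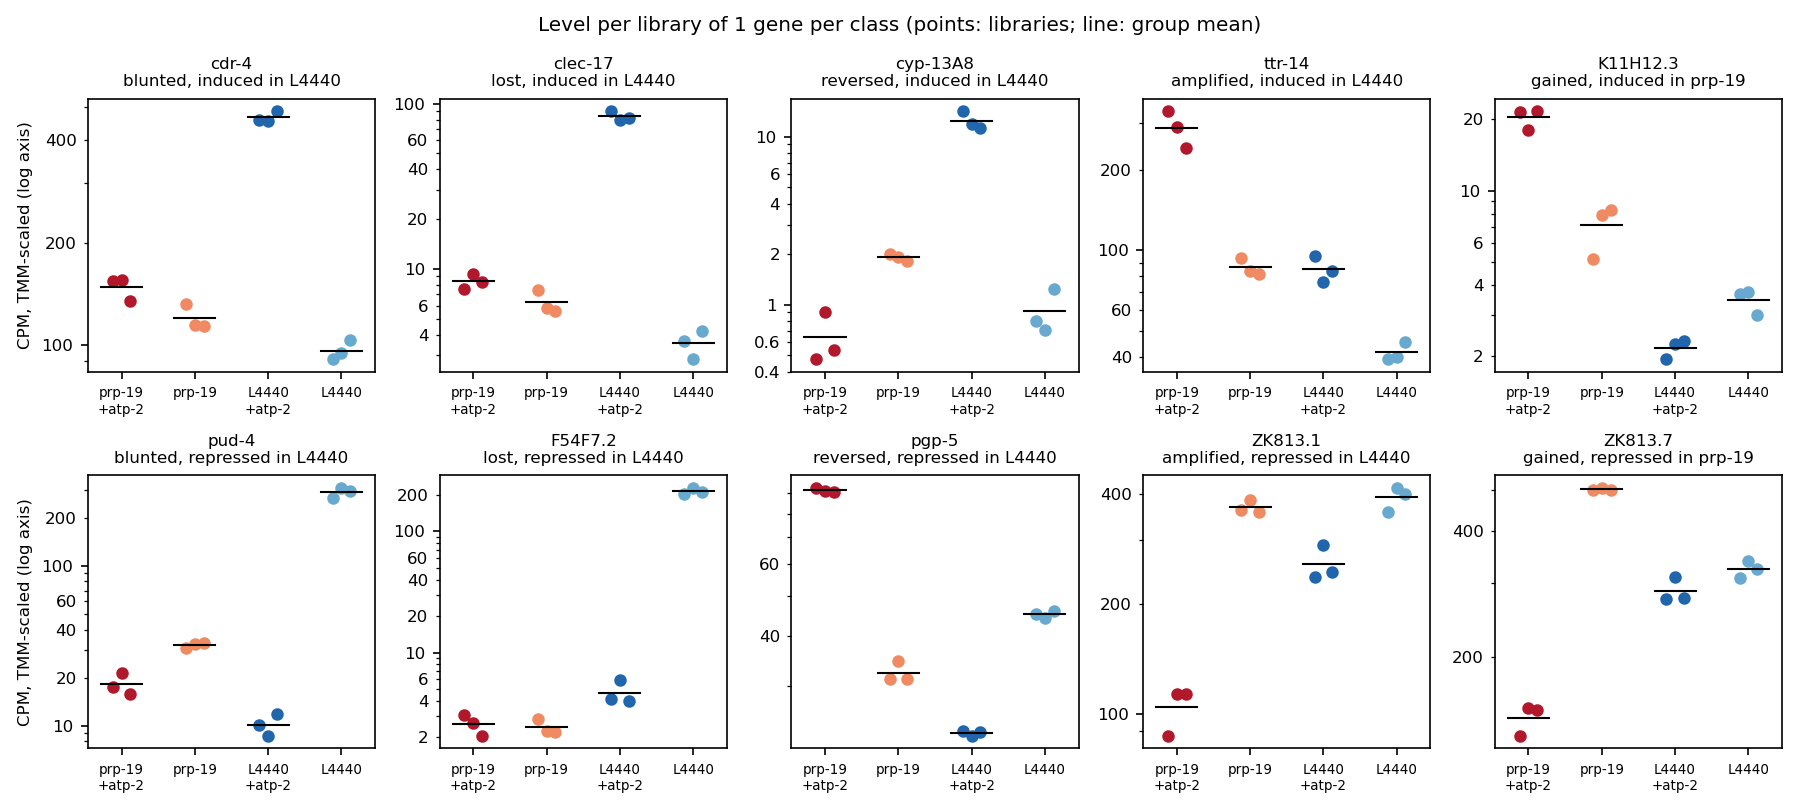
TMM-scaled CPM (log axis, with its own range in each panel) of 1 gene per class and direction, with 1 point per library and a line at the group mean, in prp-19 with atp-2 RNAi, prp-19, L4440 with atp-2 RNAi and L4440. For pgp-5 the prp-19 libraries with atp-2 RNAi stand at 90.3 to 92.7 CPM, above all other groups, while in L4440 the libraries with atp-2 RNAi lie below those without.

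To see which gene families carried the interaction, 59 lists of gene families, pathways and cell type markers were counted against the 19.3% of all genes tested. List counts with library totals stand against 31.2% of all genes tested, with 499 called higher and 3504 lower. List counts without replicate 3 of prp-19 alone stand against 27.3%. The 24 lists in which at least 28.9% of the genes tested were called are described, so their high shares follow from this choice. Medians over a list stand beside the median over all genes tested of -0.033 for the interaction, -0.00292 for the atp-2 effect in prp-19, 0.0257 for that in L4440 and 0.0637 for the prp-19 effect.

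**Figure D4:**
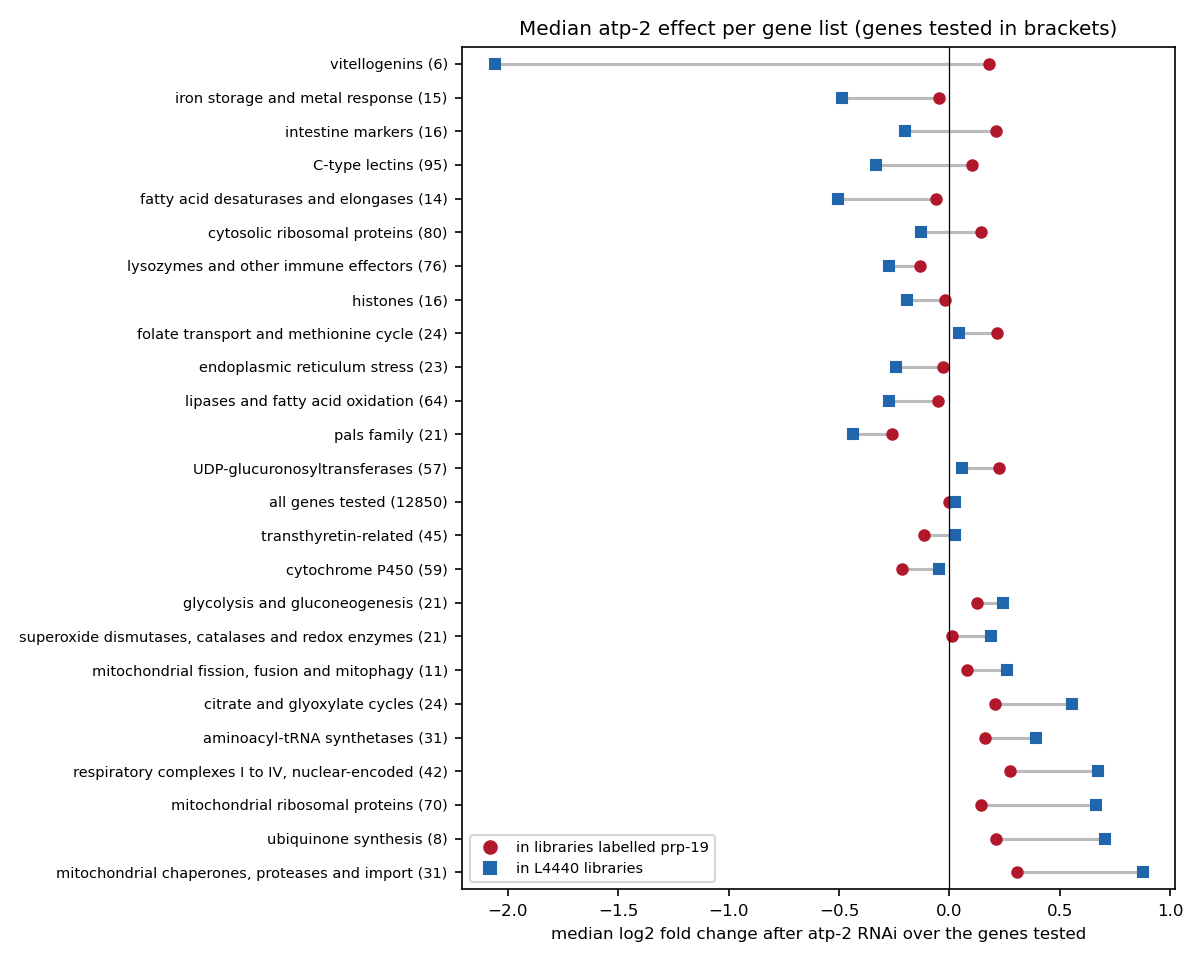
Median atp-2 effect (log2 fold change) over the genes tested of each list in the prp-19-labelled libraries (circles) and in the L4440 libraries (squares), sorted by the median interaction. The mitochondrial lists lie at the bottom, with L4440 medians of 0.662 to 0.875 for the lowest 4 and prp-19 medians of 0.145 to 0.304.

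Genes of mitochondrial protein folding, degradation and import were blunted or lost. Of 34 genes listed, 31 were tested and 21 called, 2 higher and 19 lower, and 10 were blunted and 11 lost. In L4440, 28 of the 31 rose and 2 fell after atp-2 RNAi, and in the prp-19-labelled libraries, 14 rose and 0 fell. The list's median was 0.304 in prp-19 and 0.875 in L4440. Few of these genes were masked, since 3 of the 21 had that form, 9 were opposed and 9 had no called difference at the start. timm-23 (I:11578641-11579612), a subunit of the translocase that passes proteins through the inner membrane, shows the pattern. timm-23 stood at 71.2, 77.3 and 73.0 CPM with and 42.8, 38.6 and 43.5 CPM without atp-2 RNAi in the prp-19-labelled libraries, against 204, 189 and 192 CPM with and 46.0, 48.4 and 49.9 CPM without it in L4440. The 4 groups did not overlap, and prp-19 lay close to L4440, at 38.6 to 43.5 CPM against 46.0 to 49.9 CPM.

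The prohibitins phb-2 and phb-1, which form a ring-shaped scaffold in the inner membrane, were blunted together. phb-2 stood at 69.6, 81.2 and 70.2 CPM with and 59.1, 59.2 and 56.1 CPM without atp-2 RNAi in the prp-19-labelled libraries, against 194, 185 and 188 CPM with and 70.2, 63.1 and 63.7 CPM without it in L4440. phb-2, which overlaps F13H8.5, had an interaction of -1.18 (SE 0.11, adjusted p = 4.22e-07), and phb-1 one of -1.0 (SE 0.11, adjusted p = 3.61e-06). The chaperone hsp-6, the usual reporter of the mitochondrial unfolded protein response, was blunted by -0.61 with a prp-19 effect of -0.59. For the chaperone hsp-60 the interaction, -0.46 (SE 0.17, adjusted p = 0.0657), missed the threshold, with a value of -0.215 once replicate 3 of prp-19 alone was left out. It was called with library totals, with no filter on low counts and without replicate 1 or 2 of prp-19 alone. The 2 higher genes were lonp-2, whose human orthologue LONP2 is a protease of peroxisomes, and the chaperone trap-1, which was named after its values were seen. lonp-2 measured 46.9, 49.2 and 46.2 CPM in prp-19 with atp-2 RNAi and 45.1, 46.3 and 50.8 CPM in prp-19, and it measured 43.6, 44.6 and 43.7 CPM in L4440 with atp-2 RNAi and 80.9, 74.1 and 89.2 CPM in L4440. lonp-2 was thus masked, with both prp-19 groups near the level of L4440 with atp-2 RNAi. Among 22 regulators of the mitochondrial unfolded protein response, 4 were called, 2 in each direction, a share of 18.2% that is near the background. With library totals 8 were, 1 higher and 7 lower, and DESeq2 called 2, both higher.

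Nuclear-encoded subunits and assembly factors of respiratory complexes I to IV moved in 1 direction. Of 42 tested, 25 were called and all 25 were lower, 12 blunted and 13 lost. The count was 38 under library totals, 21 by DESeq2 and between 18 and 23 when any 1 library was left out. None of the 25 was masked, 18 were opposed and 7 had no called difference at the start. The list's median was 0.274 in prp-19 and 0.675 in L4440, and its median prp-19 effect was -0.685 without and -1.08 with atp-2 RNAi. nuo-1 (II:11097837-11100146), a subunit of complex I, illustrates the opposed form. nuo-1 stood at 200.5, 199 and 195 CPM with and 183, 165 and 181 CPM without atp-2 RNAi in the prp-19-labelled libraries, against 538, 529 and 513 CPM with and 303, 278 and 271 CPM without it in L4440. The prp-19 groups stood below both L4440 groups, with an atp-2 effect of 0.17 in prp-19 and 0.89 in L4440. nuo-2 and nduf-7, also of complex I, had interactions of -0.74 and -0.76. cox-15, which makes the heme A of complex IV, had the largest interaction of the 4. cox-15 stood at 11.7, 13.3 and 13.7 CPM with and 10.1, 10.5 and 10.9 CPM without atp-2 RNAi in the prp-19-labelled libraries, against 43.3, 43.8 and 46.4 CPM with and 12.4, 13.6 and 10.4 CPM without it in L4440. Its prp-19 effect was not called (adjusted p = 0.158), so it responded less from a like starting level. Of 14 other subunits of the ATP synthase itself, 3 were called, all lower, with 11 under library totals, and 10 rose after atp-2 RNAi in prp-19 and 12 in L4440.

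Ubiquinone carries electrons between respiratory complexes, and the citrate cycle and pyruvate dehydrogenase supply them. Of 8 ubiquinone synthesis genes tested, 6 were called, all lower, with 1 blunted and 5 lost. DESeq2 called 5, library totals 7, and between 4 and 6 were called when any 1 library was left out. coq-8, a kinase-like protein of the pathway, is given by library. coq-8 measured 29.9, 32.4 and 31.1 CPM in prp-19 with atp-2 RNAi and 25.4, 26.8 and 27.9 CPM in prp-19, and it measured 112.04, 103 and 99.98 CPM in L4440 with atp-2 RNAi and 32.3, 42.2 and 36.9 CPM in L4440. The L4440 libraries with atp-2 RNAi stood alone above the other 3 groups, and no library labelled prp-19 was above 32.4 CPM. The hydroxylase clk-1 had an interaction of -0.86, coq-3 of -0.70 and coq-4 of -0.70. In the citrate and glyoxylate cycles 10 of 24 were called, 9 of them lower, with 7 blunted and 8 opposed, and with library totals 18 were called, all lower. The mitochondrial aconitase aco-2 (overlapping C06G4.4) rose in both backgrounds from a low start in prp-19. aco-2 stood at 606, 623 and 651 CPM with and 524, 559 and 513 CPM without atp-2 RNAi in the prp-19-labelled libraries, against 1659, 1597 and 1659 CPM with and 991, 971 and 986 CPM without it in L4440. The subunits of pyruvate dehydrogenase had interactions of -0.59 for pdha-1, -0.50 for pdhb-1 and -0.55 for dld-1. The 1 gene of this list that was amplified was the citrate synthase cts-1, named after its values were seen.

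Mitochondrial ribosomal proteins responded mostly from like starting levels. Of 70 tested, 32 were called and all 32 were lower, 3 blunted and 29 lost, and 24 of the 32 had no called prp-19 effect. In L4440 58 of the 70 rose after atp-2 RNAi, and in the prp-19-labelled libraries 3 did. The medians were 0.145 in prp-19 and 0.662 in L4440. DESeq2 called 20 of the 70, and library totals 60. mrps-30 was at 31.4, 30.2 and 27.9 CPM with and 28.5, 27.3 and 28.2 CPM without atp-2 RNAi in the prp-19-labelled libraries, against 59.2, 55.6 and 57.5 CPM with and 25.3, 27.3 and 27.7 CPM without it in L4440. The 9 libraries other than L4440 with atp-2 RNAi lay between 25.3 and 31.4 CPM. mrpl-14 (overlapping brf-1), mrps-14 and mrps-18C had interactions of -1.18, -1.34 and -0.89, and mrps-18C was masked, with a prp-19 effect of 0.90.

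Aminoacyl-tRNA synthetases, which charge transfer RNAs in the cytosol and in mitochondria, were called in 10 of 31 cases, all lower, with 4 masked and 6 from a like start. The cytosolic leucyl-tRNA synthetase lars-1 was blunted. lars-1 measured 264, 258 and 248 CPM in prp-19 with atp-2 RNAi and 184, 189.6 and 182 CPM in prp-19, and it measured 426, 406 and 433 CPM in L4440 with atp-2 RNAi and 138.6, 116 and 142 CPM in L4440. Its interaction was -1.2 (SE 0.11, adjusted p = 2.96e-07). The mitochondrial enzymes iars-2 (overlapping C25A1.20 and clec-87) and yars-2 had -0.89 and -0.95, and the cytosolic vars-1 had -0.74. The count for this list was 23 with library totals, 9 by DESeq2 and between 9 and 12 when any 1 library was left out.

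Genes of mitochondrial shape were called in 4 of 11 cases, all lower and all lost. They were mff-2 (overlapping wdr-12), eat-3, the worm OPA1 that fuses inner membranes, drp-1, the dynamin of fission, and fzo-1, the mitofusin of the outer membrane. Their interactions were -1.33, -0.53, -0.65 and -0.35. The call of fzo-1 was lost in 11 of the alternatives, among them DESeq2 (-0.33, adjusted p = 0.103). Among superoxide dismutases, catalases and redox enzymes, 12 of 21 were called, 9 of them lower, and with library totals all 12 called were lower. sod-3, a mitochondrial superoxide dismutase that overlaps lido-1, rose in L4440 from a higher starting level. sod-3 stood at 62.1, 53.5 and 56.1 CPM with and 40.7, 43.4 and 60.05 CPM without atp-2 RNAi in the prp-19-labelled libraries, against 414, 411 and 407 CPM with and 157, 167 and 185 CPM without it in L4440. The mitochondrial thioredoxin trx-2 (overlapping asps-1) and its reductase trxr-2 had interactions of -0.74 and -1.23. sod-5, a cytosolic superoxide dismutase, was reversed at low levels. sod-5 stood at 0.591, 0.390 and 0.324 CPM with and 2.697, 1.07 and 0.520 CPM without atp-2 RNAi in the prp-19-labelled libraries, against 3.43, 3.08 and 3.68 CPM with and 0.637, 0.531 and 0.353 CPM without it in L4440.

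**Figure D5:**
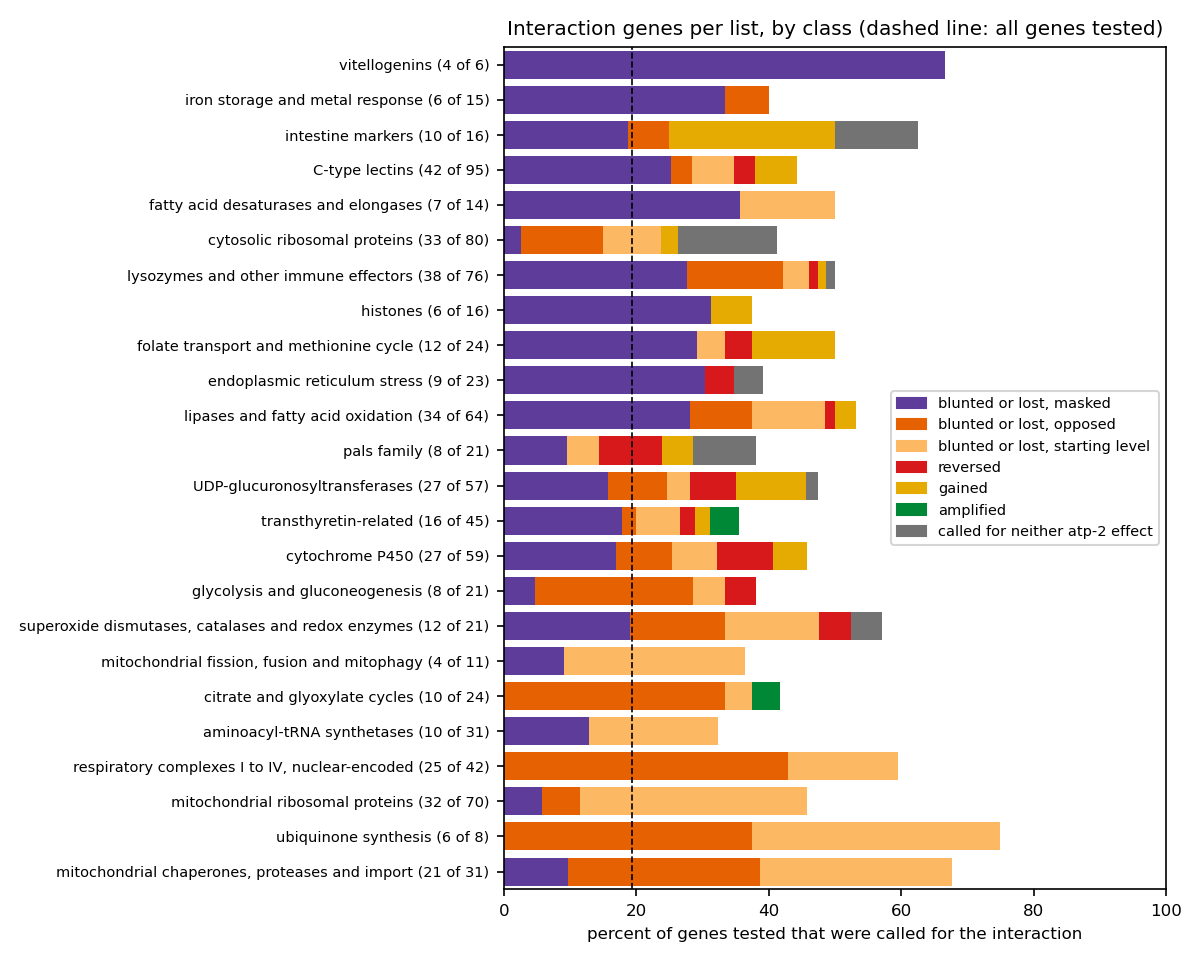
Percent of the genes tested in each list that were called for the interaction (bars, called and tested numbers in brackets), divided by class, with the 19.3% of all genes as a dashed line. Respiratory complexes show no masked gene, whereas all 4 called vitellogenins were masked.

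Genes of the endoplasmic reticulum stress response went the other way. Of 23 tested, 9 were called and all 9 were higher, with 7 masked and 1 reversed, but with library totals 4 were higher and 5 lower. Without replicate 3 of prp-19 alone, 14 were called, 13 higher and 1 lower. In L4440 10 of the 23 fell after atp-2 RNAi and 2 rose, and in the prp-19-labelled libraries 0 fell and 1 rose. The gene that rose there was hsp-4, the worm BiP chaperone, with an atp-2 effect of 0.53 in prp-19 and -0.59 in L4440. hsp-4 measured 213, 214 and 209 CPM in prp-19 with atp-2 RNAi and 136, 146 and 158 CPM in prp-19, and it measured 110.1, 107 and 110.1 CPM in L4440 with atp-2 RNAi and 159, 159.8 and 175 CPM in L4440. The protein disulfide isomerase pdi-6 was masked. pdi-6 stood at 174, 186 and 178 CPM with and 182, 176 and 175 CPM without atp-2 RNAi in the prp-19-labelled libraries, against 158, 165 and 157 CPM with and 322, 302 and 332 CPM without it in L4440. All 6 of its prp-19-labelled libraries lay between L4440 with atp-2 RNAi and L4440. pdi-2 and crt-1, the calreticulin gene that overlaps smut-1, had interactions of 0.62 and 0.60, and the call of crt-1 did not hold with library totals (0.24, adjusted p = 0.181).

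Iron and metal genes were split. Of 15 tested, 6 were called, 4 higher and 2 lower, and with library totals 0 were higher and 3 lower. Without replicate 3 of prp-19 alone the count was 11. The lower ones were cdr-4 and cdr-2, whose interaction was -1.28. The higher ones included cdr-6 at 0.66 and the ferritin gene ftn-2 at 0.58, and neither call held with library totals (adjusted p = 0.0764 and 0.0833).

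Detoxification families were called often and in both directions. Cytochrome P450 genes, which oxidise foreign and lipid compounds, were called in 27 of 59 cases, 11 higher and 16 lower. They held 4 blunted, 15 lost, 5 reversed and 3 gained responses, and with library totals 9 were higher and 23 lower. The 3 named members of the CYP-35 group were masked repressions. cyp-35B1 (overlapping K07C6.16) had an interaction of 1.42 with a prp-19 effect of -2.61, cyp-35C1 had 1.86 with -2.02, and cyp-35A2 had 1.13 with -0.51. UDP-glucuronosyltransferases, which attach sugar to such compounds, were called in 27 of 57 cases, 16 higher and 11 lower, with 7 and 18 under library totals. In this family 18 genes rose after atp-2 RNAi in prp-19 and 19 in L4440, and 6 responses were gained and 4 reversed. ugt-26 and ugt-48 (overlapping cft-1) were reversed like ugt-31, with atp-2 effects of 0.67 and 0.48 in prp-19 and -0.50 and -0.65 in L4440. ugt-22 was masked, at 1.21. Glutathione S-transferases, at 11 of 39 (28.2%), fell just under the share used for description.

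The vitellogenins, the yolk proteins made in the intestine, had the highest median interaction, 2.26, of the lists described. Their median atp-2 effect was 0.179 in prp-19 and -2.06 in L4440, and their median prp-19 effect was -1.74. Of 6 genes, 4 were called, all higher, lost and masked, and without replicate 3 of prp-19 alone all 6 were. vit-3 stood at 2327, 2527 and 2833 CPM with and 1547, 2580 and 5298 CPM without atp-2 RNAi in the prp-19-labelled libraries, against 767, 947 and 869 CPM with and 11769, 12196 and 14244 CPM without it in L4440. In vit-3, which overlaps T27A10.8, the 3 libraries of prp-19 alone spanned 1547 to 5298 CPM, and the highest was replicate 3. The interactions were 3.59 for vit-3, 3.19 for vit-4 (overlapping F59D8.3), 2.49 for vit-5 and 2.02 for vit-1. vit-3, vit-4 and vit-5 are close copies whose reads may have been divided between them, and the call of vit-1 was lost without single libraries (adjusted p up to 0.0977).

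Lipid genes were masked about as often as the 61.9% of all blunted or lost genes. Of 14 fatty acid desaturases and elongases tested, 7 were called, all higher, with 5 masked, and with library totals 3 were higher and 2 lower. The delta-9 desaturase fat-5 (overlapping twk-42) fell in both backgrounds. fat-5 measured 542, 536 and 529.6 CPM in prp-19 with atp-2 RNAi and 684, 735 and 876 CPM in prp-19, and it measured 479.5, 523 and 479 CPM in L4440 with atp-2 RNAi and 1263, 1304 and 1360 CPM in L4440. fat-6, of the same enzyme type, had 0.47, and the elongases elo-5 (overlapping F41H10.3) and elo-9 had 0.91 and 0.69. The calls of fat-6 and elo-9 did not hold with library totals. Lipases and enzymes of fatty acid oxidation were called in 34 of 64 cases, 20 higher and 14 lower, with 18 masked, and with library totals 15 and 24. lipl-1, a lysosomal lipase, was at 48.7 to 56.3 CPM in all 6 prp-19-labelled libraries. lipl-1 stood at 49.8, 49.2 and 48.7 CPM with and 52.3, 49.8 and 56.3 CPM without atp-2 RNAi in the prp-19-labelled libraries, against 66.2, 67.3 and 64.6 CPM with and 156, 156 and 171 CPM without it in L4440. cpt-5, of the carnitine palmitoyltransferase family, had an interaction of 1.75, and the acyl-CoA oxidase acox-1.5 had 1.06. ech-9, of the enoyl-CoA hydratase family, was reversed, with 0.91 in prp-19 and -1.08 in L4440.

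In folate transport and the methionine cycle 12 of 24 genes were called, 9 higher and 3 lower, with 1 and 8 under library totals. sams-1 and sams-4, which make the methyl donor S-adenosylmethionine, had interactions of 0.52 and 0.66. The hydrolase ahcy-1, which removes the product of methyl transfer, was reversed, at 0.42 in prp-19 and -0.38 in L4440, and dao-3, a folate enzyme, was blunted at 0.47. The calls of sams-1, sams-4 and dao-3 were lost with library totals. Glycolysis and gluconeogenesis had 8 of 21 genes called, 2 higher and 6 lower, with 5 opposed, and with library totals 1 and 16. The higher ones were the hexokinase hxk-1, which was reversed (0.56 in prp-19 and -0.43 in L4440), and the fructose bisphosphatase fbp-1 (0.45), whose call was lost with library totals. The phosphofructokinase pfk-1.1 had -0.44. gpd-2, a glyceraldehyde 3-phosphate dehydrogenase that has close copies and overlaps mai-1, had -0.53, and -0.345 without replicate 3 of prp-19 alone.

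Immune families leaned to higher interactions, relative to the bulk of genes. Of 95 C-type lectin genes tested, out of 240 in the table, 42 were called, 33 higher and 9 lower, and 24 were masked. With library totals 23 were higher and 15 lower. In L4440 39 of the 95 fell and 15 rose after atp-2 RNAi, and in prp-19 9 fell and 16 rose. clec-82 (overlapping Y54G2A.7) and clec-86 (overlapping alh-10) were masked repressions, with interactions of 2.37 and 2.18, and clec-173 was reversed, at 0.35 in prp-19 and -0.80 in L4440. Lysozymes and other immune effectors were called in 38 of 76 cases, 28 higher and 10 lower, with 21 masked and 11 opposed, and with library totals 19 and 17. The invertebrate-type lysozyme gene ilys-5 (X:6533490-6536840) responded less from a like start. ilys-5 stood at 99.3, 123.5 and 122.6 CPM with and 197, 192 and 206 CPM without atp-2 RNAi in the prp-19-labelled libraries, against 18.9, 24.9 and 20.3 CPM with and 208, 268 and 208 CPM without it in L4440. Its interaction was 2.63 (SE 0.17, adjusted p = 1.44e-08). spp-5, a saposin-like protein that forms pores in bacteria, was lost at a high level. spp-5 measured 1342, 1466 and 1320 CPM in prp-19 with atp-2 RNAi and 1378, 1338 and 1568 CPM in prp-19, and it measured 777, 840.4 and 813 CPM in L4440 with atp-2 RNAi and 1772, 1938 and 1940 CPM in L4440. The antimicrobial peptide gene abf-2 went the other way, at -1.22.

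The pals family, which includes genes that respond to intracellular pathogens, had 8 of 21 genes called, 4 in each direction, with 2 higher and 6 lower under library totals, and 5 called without replicate 1 of L4440. pals-23 was reversed. pals-23 stood at 75.3, 75.2 and 74.3 CPM with and 40.8, 47.3 and 56.0 CPM without atp-2 RNAi in the prp-19-labelled libraries, against 42.8, 42.2 and 47.3 CPM with and 54.3, 60.9 and 67.2 CPM without it in L4440. pals-24 was reversed as well, at 0.44 in prp-19 and -0.60 in L4440, pals-14 was gained at -1.46, and pals-31 had -1.37, which DESeq2 did not call (adjusted p = 0.0575). Transthyretin-related genes were called in 16 of 45 cases, 10 higher and 6 lower, with 8 masked and 2 amplified, and with library totals 2 and 14. ttr-33 (overlapping txt-5) was reversed, at -0.53 in prp-19 and 0.93 in L4440, ttr-34 and ttr-25 were masked at -0.80 and -0.79, and ttr-46 was lost from a like start at 0.85.

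Cytosolic ribosomal proteins gave many calls of small size. Of 80 tested, 33 were called, 31 higher and 2 lower, with a median interaction of 0.281, and 12 of the 33 were called for neither atp-2 effect. The count depended on the scaling and on which libraries entered it. It was 4 with library totals, all lower, 73 without replicate 3 of prp-19 alone and between 13 and 73 when any 1 library was left out. rpl-19 stood at 1360, 1456 and 1331 CPM with and 1240, 1194 and 1215 CPM without atp-2 RNAi in the prp-19-labelled libraries, against 854, 879 and 831 CPM with and 967, 1002 and 1039 CPM without it in L4440. rpl-19 had an interaction of 0.41 (SE 0.092, adjusted p = 0.00345) and rps-19 of 0.45 (SE 0.1, adjusted p = 0.00347), and neither held with library totals. The 2 lower genes were rpl-11.1, at -0.75, and rpl-24.2, at -0.67, whose human orthologue acts in the assembly of the large subunit. Both were masked, with prp-19 effects of 2.65 and 2.16.

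Histone genes were called in 6 of 16 cases out of 81 in the table, 4 higher and 2 lower, with 2 and 4 under library totals. Replication-dependent histone genes are near-identical and their mRNAs mostly lack polyA tails, so their values are uncertain. his-40, his-38 and his-41 (overlapping C50F4.6) had interactions of 2.13, 2.31 and 0.68, the last not called with library totals, and the linker histone hil-1 had -0.57. Intestine markers were called in 10 of 16 cases, all higher, with 4 lost, 4 gained and 2 called for neither effect. The count was 2 with library totals and 15 without replicate 3 of prp-19 alone. Their summed level was 6960 to 7200 CPM in prp-19 with atp-2 RNAi, 5160 to 7650 CPM in prp-19, 7620 to 7750 CPM in L4440 with atp-2 RNAi and 7870 to 9210 CPM in L4440. The gut protease gene cpr-1 was opposed. cpr-1 measured 476, 469.6 and 453 CPM in prp-19 with atp-2 RNAi and 545, 509 and 692 CPM in prp-19, and it measured 41.7, 44.4 and 41.5 CPM in L4440 with atp-2 RNAi and 151, 152 and 189 CPM in L4440. Its 6 prp-19-labelled libraries lay above all 6 L4440 libraries. The sphingosine phosphate lyase spl-1, the peptide transporter pept-1 and the myosin hum-5 had 0.59, 0.79 and 0.49, and the calls of spl-1 and hum-5 did not hold with library totals. Vitellogenins, lipases, P450s and many immune effectors are also expressed in the intestine, and the part of the intestinal level in their interactions was not tested.

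For splicing genes the interaction depended on the scaling. Of 60 core spliceosome genes 5 (8.33%) were called, all lower, below the background of 19.3%, and the list's median prp-19 effect was 1.11 without and 1.03 with atp-2 RNAi. Of 12 partners of PRP-19 in its complex 3 (25%) were called, all lower and masked, with a median prp-19 effect of 1.41. By edgeR 0 of 8 SR splicing proteins and 0 of 11 genes of nonsense-mediated decay were called, with 1 and 4 at an unadjusted p under 0.05 and 0 in each list by DESeq2. With library totals, where 31.2% of all genes were called, 21 of the 60 core genes (35%), 8 of the 12 partners (66.7%) and 7 of the 11 decay genes (63.6%) were called, all lower, and 0 of the SR proteins. Shares under the background were also seen for nuclear hormone receptors (19 of 175), proteasome subunits (1 of 33), translation factors (3 of 41), histone-modifying enzymes (10 of 67), body wall muscle markers (1 of 28), neuron markers (1 of 21) and genes of sensory cilia (1 of 30). With library totals, proteasome subunits (42.4%), translation factors (43.9%) and neuron markers (47.6%) stood above the 31.2% of all genes and the other 4 lists below it. Without replicate 3 of prp-19 alone, 33.3% of the neuron markers were called, against 27.3% of all genes. Near or somewhat above the background of 19.3% were F-box proteins (20 of 109), neuropeptides (16 of 98), germline and oocyte markers (7 of 26), lysosomal genes (12 of 43) and collagens (29 of 111). Of the 29 collagen genes, 13 were higher and 16 lower, and 19 were masked, in a family whose median prp-19 effect was 1.65. With library totals 37 collagen genes were called, 2 higher and 35 lower.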

How the data were processed

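The authors deposited raw gene-level read counts for 45132 genes in a single table of 12 columns, whose names were matched to the sample titles. Per the submitters' processing notes, FastQC, STAR 2.7.5c, HISAT2 2.1.0, R 4.0.5 and DESeq2 were used with ce11 and WBcel235, without a role for each. The counting program, the strand setting and the treatment of multiply matched reads were not given in the sources used here, so overlapping genes and close copies are named as such. Every entry named a gene, 72 genes had no symbol and 2 shared one, and these were named by locus tag. Coordinates and overlaps came from the Ensembl annotation of WBcel235, which held 44223 of the locus tags.

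From the counts, edgeR 4.0.16 in R 4.3.3 kept genes by filterByExpr by group, scaled by TMM (factors 0.782 to 1.26) and fitted 1 coefficient per group over 12 libraries, leaving 8 residual degrees of freedom without a replicate term (estimateDisp, robust glmQLFit, glmQLFTest). The threshold for a call was 0.05 after Benjamini-Hochberg adjustment over all genes tested. The SE of a log2 fold change was its size divided by the square root of F. Every replicate pair differed beyond sampling noise, with a chi-square per degree of freedom of 1.44 to 43. The fit was tested on simulated data.

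Alternatives were RLE size factors, library totals, DESeq2 1.42.0, no filter, a replicate block and leaving out each library. The subject and the gene lists were chosen with earlier results of these data known. Named genes were prp-19 and atp-2, then per class and direction the 3 (2 for amplified and gained) of smallest interaction p with a group mean of at least 10 CPM. For each described list up to 4 called members of smallest interaction p followed, and then hsp-6, hsp-60, timm-23 and hsp-4. No sequence is printed.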

Additional observations from a re-analysis of the deposited data

Results flagged for a closer look

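For 107 genes the atp-2 effect was called in both backgrounds with opposite signs, and the difference itself was called by the edgeR interaction test. For each direction, the 3 of smallest interaction p among those with a group mean of at least 10 CPM are given. Their interaction on the log2 scale was formed as the effect in the prp-19-labelled libraries minus that in the L4440 libraries. Those with a negative interaction fell in prp-19 and rose in L4440 after atp-2 RNAi. They were cyp-13A8 at -5.34, D1086.6 at -1.3 and endu-2 at -1.53. Those with a positive interaction rose in prp-19 and fell in L4440 after atp-2 RNAi. They were pgp-5 at 2.47, ugt-31 at 3.30 and comt-4 at 2.7. The interaction calls of these 6 held in all 17 alternatives, but whether both of their atp-2 effects stayed called there was not tested. The number of reversed genes ran from 57 to 516 when 1 library was left out.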

How the results depend on the processing

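With library totals in place of TMM, the interaction calls numbered 4003, with 499 higher and 3504 lower, and 3040 lost and 2316 masked responses. These calls held 1668 (67.4%) of the 2476 genes. With no filter on low counts, 171 responses were reversed and 255 gained. RLE size factors gave 2457 calls and DESeq2 2062. Without 1 library at a time, the interaction calls lay between 1955 and 3583, of which 1028 to 2002 were higher. The atp-2 effect in the prp-19-labelled libraries was called for 696 to 2888 genes. Blunted responses numbered 133 to 327, reversed 57 to 516, amplified 13 to 64 and gained 84 to 644, each highest without replicate 3 of prp-19 alone. The lowest numbers came without replicate 1 of prp-19 with atp-2 RNAi for the atp-2 effect, blunted and reversed responses, without replicate 2 of L4440 with atp-2 RNAi for amplified and without replicate 2 of prp-19 for gained ones. The replicate numbers did not pair the libraries, since the correlation of same-numbered deviations ran from -0.105 to 0.12 with a median of 0.0198. A replicate block gave 2299 calls, 1237 higher and 1062 lower. Relative to all genes, 21 of the 59 list medians changed sign in at least 1 alternative. Of these, 18 were under 0.1 in size, among them those of the pals, UDP-glucuronosyltransferase and transthyretin-related genes, and 3 were larger. The hedgehog-related median of 0.197 was -0.0768 with no filter and lay between -0.0284 and 0.203 without 1 library, below 0 without replicate 2 of prp-19 (-0.0176) or replicate 1 of prp-19 with atp-2 RNAi. The insulin median of -0.102 lay between -0.124 and 0.0382, above 0 without replicate 3 of L4440 or replicate 1 of L4440 with atp-2 RNAi (0.0254). The cuticle and moulting median of -0.187 lay between -0.341 and 0.114, above 0 without replicate 3 of prp-19 or replicate 3 of prp-19 with atp-2 RNAi (0.0334). Of 121 named genes, 101 kept their side of the threshold in all 17 alternatives and 16 changed only with library totals, which moved 39 of the values by more than 1.5 times. The remaining 4 were fzo-1, pals-31, vit-1 and hsp-60. The cause of these changes was not tested. Genes at low CPM rest on few reads, and effects that missed the threshold may be real.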

Other observations

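The interaction was not spread evenly over the chromosomes. On chromosome X, 381 of 1943 genes tested were called, a share of 19.6% that is close to the 19.3% of all genes, but 266 were higher and 115 lower. With library totals 108 were higher and 399 lower, so this split is relative to the bulk of genes. On chromosomes I to V the higher calls numbered 162, 185, 151, 239 and 297 and the lower ones 207, 198, 203, 192 and 260. The median interaction was 0.0623 on X and lay between -0.0631 and -0.0374 on the others. Relative to all genes, the X median was 0.0959 with library totals and 0.103 without replicate 3 of prp-19 alone. Several vitellogenins, pgp-5, ilys-5 and other intestinal genes lie on X, and their part in the median was not tested.

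Cytosolic heat shock genes were called in 3 of 27 cases (11.1%, against 19.3% of all genes), all lower. Those 3 were named after their values were seen, and 2 of them are small heat shock proteins, hsp-12.6 (-1.70, SE 0.47, edgeR adjusted p = 0.0158) and sip-1 (-0.99, SE 0.28, adjusted p = 0.0191), which overlaps F43D9.8, with dnj-12 as the third. Without replicate 3 of prp-19 alone, 13 of the 27 were called, 10 higher and 3 lower, and with library totals 8 were, all lower.

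Genes of exogenous RNAi and Argonautes were called in 9 of 42 cases (21.4%), a share near the 19.3% of all genes, with 5 higher and 4 lower. Of these, chosen after their values were seen, the piRNA Argonaute prg-1, which overlaps D2030.12, averaged 92.2 CPM in prp-19 with atp-2 RNAi, 73.4 CPM in prp-19, 97.6 CPM in L4440 with atp-2 RNAi and 26.6 CPM in L4440 (interaction -1.54, SE 0.13, adjusted p = 1.63e-07). The nuclear Argonaute hrde-1 had an interaction of -0.98 (adjusted p = 0.0151), and the Argonautes sago-2 and csr-1 (overlapping frpr-10) had 0.86 and 0.60 (adjusted p = 0.00511 and 0.0206). With library totals 8 of the 42 (19%) were called, all lower, against 31.2% of all genes. DESeq2 called 6, and between 5 and 12 were called when any 1 library was left out.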
